A study of Mus musculus with 8 samples.

Results

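The genes of the vascular endothelial growth factors, the angiopoietins and their receptors were followed in RNA of mouse ovary and of ovarian neoplasia. They are the ligands Vegfa, Vegfb, Vegfc and Pgf, their receptors Flt1, Kdr and Flt4, the ligands Angpt1 and Angpt2, and the angiopoietin receptor Tek. A probe belonged to the set when it was no control and its RefSeq accession was one of these 10 genes. This gave 12 of the 55681 distinct probes on the array, and 10 of the 20145 genes with a symbol. All 12 probes passed the filter on dim probes.

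Ovaries were taken from mice of 33 weeks of age and hybridised to 1-colour Agilent arrays, with 3 arrays for the wildtype and 5 for the neoplasia group. The labels write the genotype of the neoplasia mice as Pgrcre/+mPgrLsL/+ and, in the series description, as Pgrcre/+PgrBLsL/+. These mice carried 1 allele of Pgr, the progesterone receptor gene, with cre, and 1 allele of the receptor (isoform B in the second spelling) behind a loxP-stop-loxP cassette. Cre driven from the Pgr locus acts in cells in which that locus is or was active, and the stop cassette is lost there. The wildtype mice carried neither allele, so the cre allele alone, the active receptor allele and the presence of a neoplasm cannot be told apart in this comparison. All 8 samples were RNA of whole tissue from cycling mice. Their descriptions each carry a number of its own, which is not stated to stand for an animal. Titles number the replicates within each group, whereas the source names call every sample replicate 1, and the titles were followed. The p-values below therefore measure the spread between these samples, which may be technical in part.

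Vascular endothelial growth factors are secreted dimers that bind receptor tyrosine kinases on endothelium. VEGFA acts through KDR to drive permeability, endothelial division and sprouting, FLT1 binds VEGFA, VEGFB and placental growth factor (PGF) tightly, and FLT4 with VEGFC serves chiefly the lymphatic vessels. ANGPT1, made by cells around vessels, activates TEK and stabilises them, whereas ANGPT2, stored and released by endothelium, mostly opposes it. In the ovary this system builds and removes a capillary bed around each follicle and corpus luteum in every cycle.

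Start regions of Vegfa, which rose, and of Vegfb, the ligand whose groups were closest, are shown because both ligands bind FLT1 and their RNA differed in how it moved. Each is the run of 250 bases before a transcription start in the RefSeq table of GRCm38.p6, read 5′ to 3′ on the gene's own strand, which is the minus strand for both. The Vegfa window shown lies at chr17:46032378-46032627 and that of Vegfb at chr19:6987652-6987901. Capitals mark matches, on either strand, to GGGCGG (the GC box bound by SP1), to ACGTG or GCGTG (cores of the hypoxia response element) and to TATAAA (the TATA box).
Vegfa: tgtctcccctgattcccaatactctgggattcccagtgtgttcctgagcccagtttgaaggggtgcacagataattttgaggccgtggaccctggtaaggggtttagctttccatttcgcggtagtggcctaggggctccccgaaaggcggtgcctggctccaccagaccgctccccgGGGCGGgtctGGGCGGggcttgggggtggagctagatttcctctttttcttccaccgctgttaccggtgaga
Vegfb: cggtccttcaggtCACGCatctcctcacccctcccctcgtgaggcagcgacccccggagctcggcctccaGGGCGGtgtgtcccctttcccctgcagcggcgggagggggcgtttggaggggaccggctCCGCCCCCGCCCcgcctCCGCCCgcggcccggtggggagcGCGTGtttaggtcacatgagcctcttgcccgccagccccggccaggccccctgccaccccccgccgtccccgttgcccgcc
The Vegfa window shown held 2 GC boxes and neither hypoxia core, and the Vegfb window held 4 GC boxes and 2 matches to GCGTG. Neither held TATAAA. The table lists another start of Vegfa, downstream of the one shown on the minus strand. Its window at chr17:46025164-46025413 held 1 GC box and 1 match to each hypoxia core. The bases around both hypoxia matches read in frame as VEGFA coding sequence, so these matches are not taken as promoter elements. They include the only ACGTG match among the windows of members. The GC content was 59.2% for the Vegfa window shown and 76.4% for Vegfb. Windows were at hand for 8 of the 10 members, 10 windows in all, of which 8 held GGGCGG, 5 GCGTG, 1 ACGTG and 1 TATAAA. Among all 32851 windows of this length, 32.7% held GGGCGG, 28.2% GCGTG, 16.6% ACGTG and 12.4% TATAAA. A match is a run of letters and not a measured binding site, and elements outside these windows were not searched.

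Levels are log2 values of the processed signal, set relative to the 75th percentile of signal on the same array, which lies at 0. Levels of different probes are not on a common scale, so genes are compared with themselves across arrays, and a ratio of 2 probes only in its change between groups. The difference between groups is the neoplasia mean minus the wildtype mean on this log2 scale. It was tested with limma and passed at a Benjamini-Hochberg adjusted p below 0.05 over 25206 features. Of the 10 members, 2 rose (Vegfa and Flt1), 1 fell (Angpt1) and 7 did not pass. Of all features tested, 30.4% changed, 17.0% rising and 13.4% falling, so the share of members that changed was near that of the array as a whole. The median difference of the members was 0.55, against 0.14 for all features. The groups did not overlap for Vegfa, Pgf and Flt1, which were higher in all neoplasia arrays, and for Angpt1, which was lower. Over all features, 39.1% had no overlap between the groups, 23.2% with higher and 16.0% with lower neoplasia values.

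**Figure D1:**
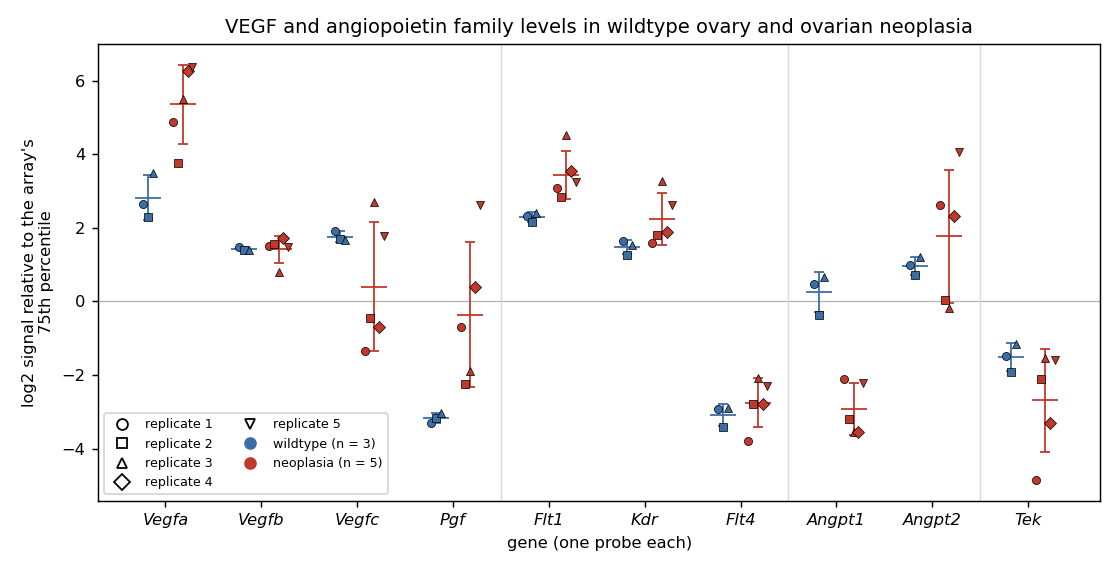
Level of each member on every array (y axis, log2 signal relative to the array's 75th percentile), with wildtype in blue (n = 3) and neoplasia in red (n = 5). Horizontal bars are means, error bars are SD, and grey lines part VEGF ligands, VEGF receptors, angiopoietins and Tek. Vegfa, Pgf and Flt1 lay above and Angpt1 below the wildtype range on all 5 neoplasia arrays.

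Vegfa, the main angiogenic ligand, was higher on every neoplasia array. Its brighter probe, A_52_P638895, read 2.66, 2.29 and 3.49 on wildtype 1 to 3. It read 4.88, 3.75, 5.50, 6.26 and 6.36 on neoplasia 1 to 5. Neoplasia 4 and 5 were highest, and neoplasia 2 came nearest to the wildtype range without entering it. The mean went from 2.81 ± 0.61 (SD, n = 3) to 5.35 ± 1.08 (SD, n = 5), a difference of 2.54 ± 0.61 (SE) or 5.81-fold (limma adjusted p = 0.0181). The signal itself spanned 2523 to 5173 in wildtype and 5744 to 29360 in neoplasia arrays. The call was lost without wildtype 1 (adjusted p = 0.0734) or wildtype 2 (adjusted p = 0.0761), and in the fit blocked on slide row (3.55, adjusted p = 0.0649), in which row 1 held neoplasia arrays only.

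The other Vegfa probe, A_52_P249424, was matched through another RefSeq transcript of the gene and moved the same way by more. It lay at -0.76, -0.96 and 0.05 on the wildtype arrays and at 2.86, 1.70, 3.26, 4.29 and 4.18 on neoplasia 1 to 5, again with no overlap. The difference was 3.81 ± 0.58 (SE), or 14.1-fold (limma adjusted p = 0.00315 in the fit of all tested probes). Where on the transcripts the probes lie is not given in the files, so the difference between the 2 probes was not assigned to a splice form. The mean over both probes was 3.18 higher (limma adjusted p = 0.00708).

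**Figure D2:**
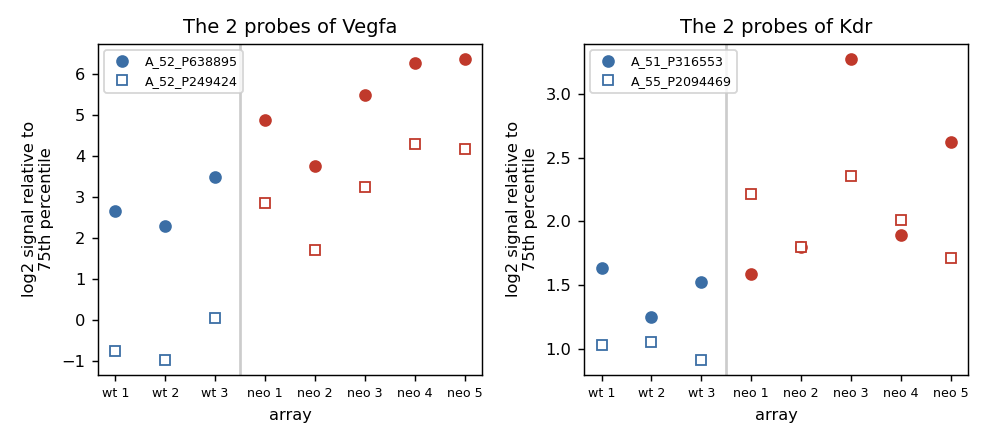
Log2 level of the 2 probes of Vegfa and the 2 probes of Kdr on each array (filled circles for the probe that stands for the gene, open squares for the other; blue for wildtype, wt, and red for neoplasia, neo). Both Vegfa probes separated the groups, whereas of the Kdr probes only A_55_P2094469 did.

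Pgf encodes placental growth factor, a ligand of FLT1 that is scarce in most healthy tissue. It lay at -3.30, -3.17 and -3.04 on the wildtype arrays, a range of 0.26. On neoplasia 1 to 5 it lay at -0.69, -2.25, -1.90, 0.40 and 2.63, a range of 4.88. All 5 exceeded wildtype, by 0.92 on neoplasia 2 and by 5.80 on neoplasia 5 against the wildtype mean. In signal, wildtype ran from 52.0 to 57.4 and neoplasia from 89.5 to 2207. The difference of 2.81 ± 1.01 (SE) did not pass (limma adjusted p = 0.0654; 95% interval 0.50 to 5.12). It passed without neoplasia 5, the highest array (2.06, adjusted p = 0.0343), and without neoplasia 2, the lowest (3.28, adjusted p = 0.0397).

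Vegfc and Vegfb did not pass, in different ways, except that Vegfc passed as lower with spike-in scaling (-1.96, limma adjusted p = 0.0382). Vegfc, the ligand of FLT4, lay between 1.65 and 1.92 in wildtype. It split the neoplasias, with neoplasia 1, 2 and 4 at -1.36, -0.46 and -0.70, neoplasia 5 at 1.79 and neoplasia 3 at 2.70. The difference was -1.36 ± 0.90 (SE; limma adjusted p = 0.268; 95% interval -3.42 to 0.69). Vegfb, a ligand of FLT1 known from muscle and heart, lay between 1.40 and 1.48 in wildtype and between 0.79 and 1.72 in neoplasia. Its difference of -0.02 ± 0.24 (SE; limma adjusted p = 0.958) had a 95% interval of -0.56 to 0.52, the narrowest of the 10 members. Its lowest value was on neoplasia 3.

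Among the receptors of VEGF ligands, Flt1 rose, and its groups were set apart by a small margin. It read 2.33, 2.15 and 2.41 on the wildtype arrays and 3.07, 2.84, 4.51, 3.53 and 3.23 on neoplasia 1 to 5. The groups did not overlap, and neoplasia 3 stood highest. The difference was 1.14 ± 0.36 (SE), or 2.21-fold (limma adjusted p = 0.0455), close to the threshold. The call was lost without wildtype 1, 2 or 3 (adjusted p = 0.128, 0.140 and 0.0992) and without neoplasia 1 or 4 (0.0520 and 0.0846). It was also lost under quantile normalization, where the difference was 0.80, in the authors' deposited values (0.66) and under spike-in scaling (0.54), with adjusted p = 0.120, 0.194 and 0.561. FLT1 exists as a membrane receptor and as a soluble form that traps VEGFA, and the files do not say which of them the probe reads.

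The 2 probes of Kdr, the main signalling receptor of VEGFA, gave different calls. Probe A_51_P316553, spotted 10 times on the array, read 1.63, 1.25 and 1.52 in wildtype and 1.58, 1.80, 3.27, 1.89 and 2.62 on neoplasia 1 to 5. Neoplasia 1 lay within the wildtype range, and neoplasia 3 and 5 were highest. The difference of 0.76 ± 0.39 (SE), or 1.70-fold, did not pass (limma adjusted p = 0.164; 95% interval -0.13 to 1.66). Probe A_55_P2094469, with a single spot, read 1.03, 1.06 and 0.92 in wildtype and 2.21, 1.80, 2.35, 2.01 and 1.71 in neoplasia, with no overlap. It was 1.01 ± 0.21 (SE) or 2.02-fold higher (limma adjusted p = 0.0103 in the fit of all tested probes). The mean over both probes rose by 0.89 (limma adjusted p = 0.0337).

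Flt4, the receptor of lymphatic endothelium, was dim in both groups and did not pass. It lay between -3.42 and -2.90 in wildtype and between -3.79 and -2.08 in neoplasia, or at signals of 48.2 to 67.3 and of 22.2 to 85.1. The difference was 0.33 ± 0.38 (SE; limma adjusted p = 0.522; 95% interval -0.54 to 1.20), and its sign turned under spike-in scaling (-0.27) and in the authors' deposited values (-0.15).

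Angpt1, the ligand that activates TEK, fell on every neoplasia array. It lay at 0.47, -0.37 and 0.65 in wildtype and at -2.11, -3.20, -3.55, -3.56 and -2.22 on neoplasia 1 to 5. Every neoplasia value was below the lowest of wildtype. The mean went from 0.25 ± 0.55 (SD, n = 3) to -2.93 ± 0.71 (SD, n = 5), a difference of -3.18 ± 0.44 (SE), or 9.04-fold lower (limma adjusted p = 0.00200). The signal spanned 398 to 723 in wildtype and 28.5 to 76.7 in neoplasia arrays, and was well above background on all 8. The call held when any 1 array was left out, with adjusted p between 0.00161 and 0.0143, and under quantile normalization, spike-in scaling and in the deposited values, with differences of -3.10, -3.78 and -3.65. It was lost with slide row as a block (-2.47, adjusted p = 0.0708). In whole tissue, fewer cells that make a transcript and less of it per cell cannot be told apart.

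Angpt2, the ligand that mostly opposes ANGPT1 at TEK, went both ways among the neoplasias. Wildtype arrays read 0.98, 0.71 and 1.20. Neoplasia 1, 4 and 5 were higher, at 2.61, 2.33 and 4.07, whereas neoplasia 2 and 3 were lower, at 0.05 and -0.19. The difference of 0.81 ± 0.93 (SE) did not pass (limma adjusted p = 0.525; 95% interval -1.32 to 2.94).

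Of 3 log2 ratios of member probes within an array that were computed, 1 did not overlap between the groups, that of the angiopoietins. The log2 ratio of the Angpt2 to the Angpt1 probe was 0.51, 1.08 and 0.55 on the wildtype arrays and 4.72, 3.25, 3.35, 5.89 and 6.28 on neoplasia 1 to 5. The mean ratio was 3.99 higher in neoplasia on the log2 scale, or 15.8-fold, a value that adding a constant to an array cannot move. The pair was chosen after the values were seen, and the shift was not tested. The ratio of Vegfa to Flt1 was 0.14 to 1.08 in wildtype and 0.91 to 3.13 in neoplasia, and that of Vegfa to Kdr 1.02 to 1.97 and 1.95 to 4.37, both with overlap. On neoplasia 2 and 3 both angiopoietins were below wildtype and Angpt1 was further below.

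Tek, the receptor of both angiopoietins, did not pass, except with spike-in scaling (-1.77, limma adjusted p = 0.0292). It lay at -1.48, -1.91 and -1.16 in wildtype and at -4.86, -2.11, -1.55, -3.30 and -1.61 on neoplasia 1 to 5. Neoplasia 3 and 5 lay within the wildtype range and the other 3 below it. The value of neoplasia 1 was not well above background. The difference was -1.17 ± 0.74 (SE; limma adjusted p = 0.249; 95% interval -2.86 to 0.52), and -0.63 without neoplasia 1 (adjusted p = 0.325).

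**Figure D3:**
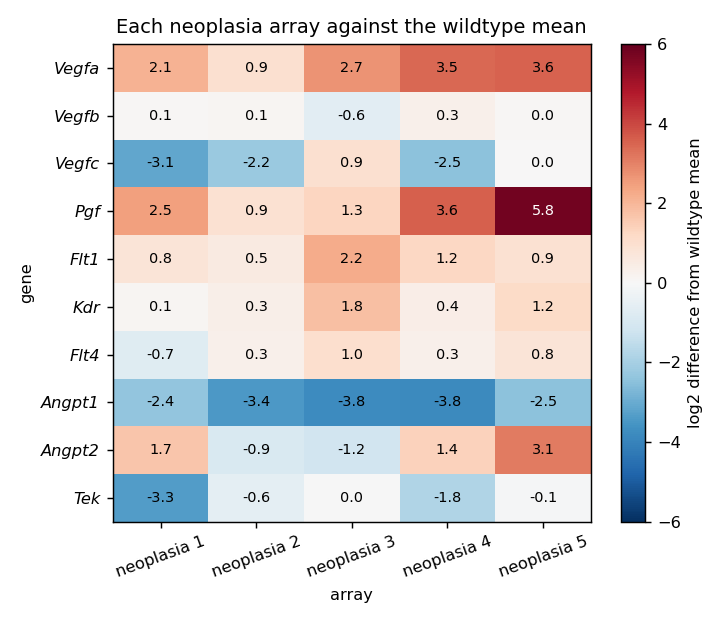
Each neoplasia array's level of each member minus the wildtype mean, on the log2 scale (red higher, blue lower; rows are genes, columns are arrays). Vegfa, Pgf, Flt1 and Kdr were above 0 and Angpt1 and Tek below 0 in all 5 columns, although Tek was at -0.03 on neoplasia 3. Vegfb, Vegfc, Flt4 and Angpt2 changed sign between arrays.

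The neoplasias thus differed from each other in which members stood out. Neoplasia 3 had the highest Vegfc, Flt1, Kdr and Flt4 values of all 8 arrays and the lowest Vegfb. Neoplasia 5 had the highest Pgf and Angpt2, and the highest Vegfa on probe A_52_P638895, whereas neoplasia 4 was highest on A_52_P249424. Neoplasia 1 had the lowest Vegfc, Flt4 and Tek. The SD among neoplasias was 1.97 for Pgf, 1.81 for Angpt2 and 1.75 for Vegfc, against 0.13, 0.25 and 0.14 in wildtype.

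**Figure D4:**
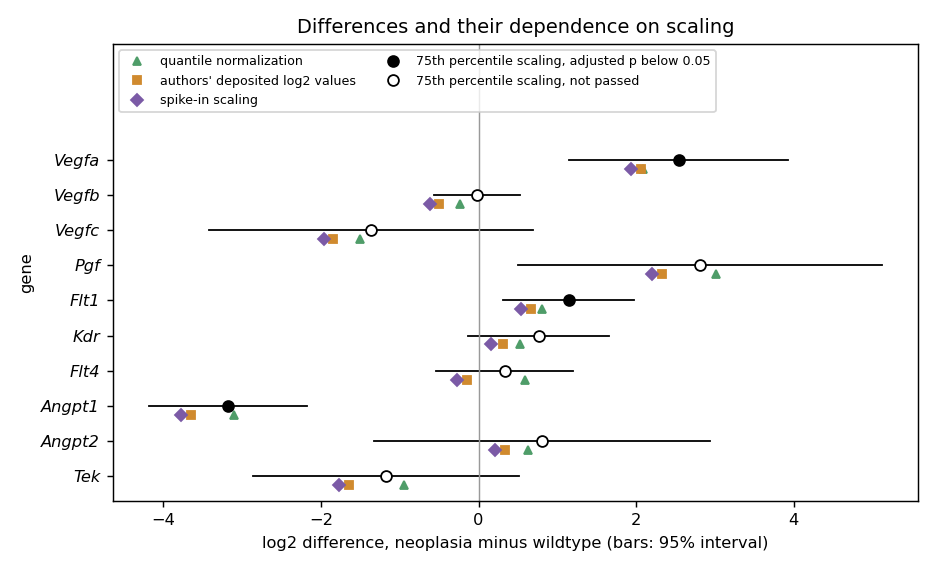
Difference of each member, neoplasia minus wildtype on the log2 scale, with its 95% interval (circle and bar; filled where the adjusted p was below 0.05), and below it the difference under quantile normalization, in the authors' deposited log2 values and under spike-in scaling. Vegfa stayed near 2 or above and Angpt1 near -3 or below in all 4, whereas of these 4 settings Flt1 passed only with the 75th percentile.

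The scaling between arrays shifted the differences. The median feature differed by 0.14 with the 75th percentile, 0.03 with quantile normalization, -0.34 in the unscaled deposited values and -0.46 with spike-in scaling. Spike-in scaling used 5 of 10 spike-in probes, whose mean log2 signal was 8.89 on neoplasia 1 and 10.03 to 10.75 on the other arrays. Of the calls over all features, 56.0% were higher in neoplasia with the 75th percentile, 67.1% with normexp background correction, 50.4% with quantile normalization, 19.9% in the deposited values and 15.5% with spike-in scaling. The 75th percentile of signal was 460 to 515 on wildtype and 307 to 426 on neoplasia arrays, and 29320 to 34138 probes were well above background on an array. Probe A_51_P213476 of Pgr, the targeted gene, had a signal of 3.10 to 28.2 in wildtype and of 3128 to 10660 in neoplasia. Its other probe, A_55_P2095663, was above background on 3 of 3 wildtype and 0 of 5 neoplasia arrays. Neoplasia 5 shared slide row 2 with the 3 wildtype arrays, and neoplasia 1 to 4 filled row 1. Within row 2 the only neoplasia is that 1 array, so a test there holds no spread between neoplasias. In that row Vegfa differed by 3.55, Pgf by 5.80, Flt1 by 0.94 and Angpt1 by -2.47. Angpt2 differed by 3.10, Kdr by 1.15, Flt4 by 0.78, Vegfb by 0.05, Vegfc by 0.03 and Tek by -0.09. With the row as a block the differences of Vegfa, Pgf, Flt1 and Angpt1 were the same, with limma adjusted p = 0.0649, 0.0161, 0.388 and 0.0708. Those of Angpt2 and Kdr had limma adjusted p = 0.159 and 0.314.

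Other genes of the pathway were read against the 30.4% of all features that changed. Of 27 measured co-receptors, further ligands and signalling proteins, 4 rose, 3 fell and 20 did not pass, a share of changed genes near that of all features, with a median difference of 0.30. Hspb1, a small heat shock protein phosphorylated downstream of KDR, rose by 3.17 ± 0.39 (SE), and Nfatc1, a calcineurin-dependent transcription factor, rose by 1.91 ± 0.33 (SE). Foxo1, a transcription factor restrained by TEK signalling and an inducer of Angpt2, fell by 2.19 ± 0.31 (SE), and Grb14, an adaptor that binds receptor tyrosine kinases, fell by 2.14 ± 0.29 (SE). Limma adjusted p for these 4 lay between 0.00113 and 0.00547. The part of cell content, such as that of granulosa cells, in the levels of these genes was not tested. The co-receptors Nrp1 and Nrp2 and the orphan receptor Tie1 differed by -0.35, -0.98 and 0.70, and none passed (limma adjusted p = 0.572, 0.221 and 0.170). The ligand Vegfd differed by -0.64 and Angpt4, above background on 2 of 5 neoplasia arrays, by -1.77 (limma adjusted p = 0.350 and 0.252). The rises numbered 2 without any 1 wildtype array, 6 without neoplasia 1 and 1 with spike-in scaling; the falls numbered 2 without wildtype 1 or 2 and 6 without neoplasia 5.

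In the fit used for the calls above, the general endothelial transcripts that passed all rose. Of 24 general endothelial genes, 10 rose and 14 did not pass, beside 17.0% of all features that rose. Their median difference was 0.95, against 0.14 for all features. Clec14a, lower on every neoplasia array than in wildtype, and Sox17 differed by -1.37 and -0.82 and did not pass (limma adjusted p = 0.0751 and 0.222). Gpihbp1, which anchors lipoprotein lipase in capillaries, rose by 3.71 ± 0.39 (SE), and Cdh5, the endothelial cadherin, Esam, an adhesion molecule of endothelial junctions, and S1pr1, a sphingosine phosphate receptor, rose by 1.54, 1.54 and 1.53. Limma adjusted p for these 4 lay between 0.000525 and 0.0256. Mean levels of the list spanned 1.29 to 1.35 in wildtype and 1.502 to 2.84 in neoplasia arrays, lowest on neoplasia 1 and highest on neoplasia 3. All 24 genes were well above background on all 8 arrays. The part of endothelial content in the levels of Flt1, Kdr and Tek was not tested. The rises numbered 2 without wildtype 1 or wildtype 2, 5 without wildtype 3, and 6 without neoplasia 3 or neoplasia 4. They numbered 6 with quantile normalization, 3 in the deposited values and 1 with spike-in scaling. Falls numbered 1 with spike-in scaling, in the deposited values, with normexp background correction, with array weights and without neoplasia 3.

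Genes of sprouting endothelium had a larger median difference, which was not compared by a test. Of 14 such genes, 8 rose and 6 did not pass, beside 17.0% of all features that rose. Their median difference was 1.95, against 0.14 for all features. Plvap, a protein of fenestrae, and Aplnr, the apelin receptor, were lower on every neoplasia array than in wildtype, with differences of -2.19 and -1.98 that did not pass (limma adjusted p = 0.0849 and 0.240). Esm1, a proteoglycan of tip cells, rose by 6.02 ± 0.49 (SE), or 64.8-fold. Unc5b, a netrin receptor, rose by 3.41 ± 0.27 (SE), Plaur, the urokinase receptor, by 3.32 ± 0.56 (SE) and Cxcr4, a chemokine receptor, by 2.58 ± 0.49 (SE). Limma adjusted p for these 4 lay between 0.00012 and 0.00769. Leaving out any 1 array gave 7 to 9 rises, and 5 were left with spike-in scaling. Falls numbered 2 with spike-in scaling, and 1 in the deposited values, with the replicate block, with array weights and without neoplasia 5. Aplnr was well above background on 4 of 5 neoplasia arrays. Plaur and Cxcr4 are also made by leukocytes, and of 9 measured macrophage genes 8 rose, among them Cd14, Msr1, C1qb and C1qc by 4.35, 2.32, 1.67 and 1.56 (largest limma adjusted p = 0.00844). The mean level of that list was 0.65 to 0.91 in wildtype and 2.19 to 3.23 in neoplasia arrays, and its part in these 2 genes was not tested. Macrophage rises numbered 5 without wildtype 1 or wildtype 2 and 2 with spike-in scaling and in the deposited values.

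Among genes of the vessel wall 4 of 14 passed, and among lymphatic genes 1 of 6, beside 30.4% of all features. Of 14 pericyte and vascular smooth muscle genes, 3 rose, 1 fell and 10 did not pass, with a median difference of -0.26. The pericyte genes Higd1b, Kcnj8 and Abcc9 rose by 3.18 ± 0.45, 2.39 ± 0.32 and 1.38 ± 0.27 (SE), whereas Cnn1, the smooth muscle calponin, fell by 4.75 ± 1.22 (SE). Limma adjusted p for these 4 lay between 0.00176 and 0.0228. The falls numbered 0 without wildtype 1 or 2, and 5 without neoplasia 5. Among the 10 genes that did not pass, Rgs5, Cspg4 and Mcam differed by 1.09, 0.76 and 0.42. Tagln, Acta2 and Des differed by -2.84, -2.68 and -2.57, and Anpep, Myh11, Pdgfrb and Notch3 by -1.14, -0.89, -0.42 and -0.10. Of 6 measured lymphatic genes, 1 fell and 5 did not pass, with a median difference of -0.85. Mmrn1, a multimerin of lymphatic endothelium and platelets, was the gene that passed, with a difference of -3.46 ± 0.69 (SE; limma adjusted p = 0.00938). Of the 5 neoplasia arrays, 4 had Mmrn1 well above background. Among the 5 genes that did not pass, Prox1, Itga9 and Pdpn differed by -1.17, -1.07 and -0.63, and Lyve1 and Foxc2 by 1.36 and 0.78. Lymphatic falls numbered 0 with slide row as a block. They numbered 2 with quantile normalization, with spike-in scaling, with no filter on dim probes and without neoplasia 2.

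Genes of the hypoxia response, most of which share with Vegfa its induction by low oxygen, rose in most cases. The list also holds Hif1a, Epas1 and Vhl, which regulate that response, and of these Epas1 rose. Of 18 genes in the list, 12 rose and 6 did not pass, with a median difference of 1.43, beside 17.0% of all features that rose. Those 6 were Pdk1, Loxl2, Hif1a, Kdm3a and Vhl, which differed by 1.39, 0.88, 0.77, 0.48 and 0.03, and Car9, by -0.33. Ndrg1, a stress-induced differentiation gene, rose by 4.58 ± 0.52 (SE), Egln3, an oxygen-sensing hydroxylase, by 3.90 ± 1.19 (SE), Ankrd37 by 2.97 ± 0.44 (SE) and Ddit4, an inhibitor of mTORC1, by 2.72 ± 0.33 (SE). Limma adjusted p for these 4 lay between 0.00081 and 0.0397. The mean level of the list was 1.68 to 1.78 in wildtype and 2.61 to 4.39 in neoplasia arrays. It was highest on neoplasia 5, where the brighter Vegfa probe was highest too. It was lowest on neoplasia 2, where Vegfa was lowest among the neoplasias. The other Vegfa probe was highest on neoplasia 4, at 4.29 against 4.18 on neoplasia 5. The order of the other arrays differed. The list mean was 2.74 on neoplasia 3 and 3.75 on neoplasia 1, whereas the brighter Vegfa probe read 5.50 and 4.88. The part of low oxygen in the level of Vegfa was not tested. Leaving out wildtype 1, 2 or 3 reduced these 12 calls to 4, 5 or 6. Quantile normalization and the deposited values each gave 8, and spike-in scaling 4. With slide row as a block, 8 hypoxia, 7 endothelial, 6 sprouting and 2 macrophage genes rose. These gene lists were chosen with earlier results of these data known.

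**Figure D5:**
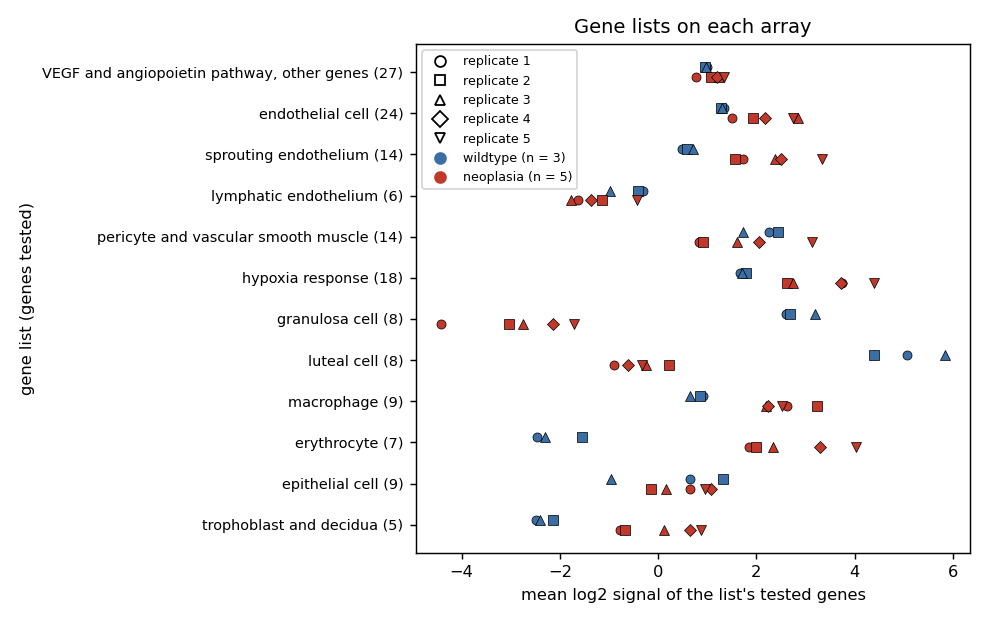
Mean log2 level of the tested genes of each list on every array (x axis; blue wildtype, n = 3; red neoplasia, n = 5; marker shape is the replicate; the number of genes tested is in brackets). The endothelial, sprouting, hypoxia, macrophage, erythrocyte and trophoblast lists lay higher on all 5 neoplasia arrays than on any wildtype array, and the granulosa and luteal lists lower. In the trophoblast list 1 of the 5 genes, Prl8a2, differed by 11.2 and the others by -0.90 to 0.56.

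Transcripts of other cell types of the ovary also differed between the groups, and are read beside the 17.0% of all features that rose and the 13.4% that fell. All 8 granulosa and 8 luteal genes were well above background on all wildtype arrays. In neoplasia 6 of 8 granulosa genes fell, among them Inha, Hsd17b1, Fshr and Inhba, and 8 of 8 luteal genes, among them Ptgfr, Lhcgr, Hsd3b1 and Akr1c18. The granulosa transcription factors Foxl2 and Nr5a2 did not pass: Foxl2 differed by 0.43, with every neoplasia value above wildtype, and Nr5a2 by -3.01 (limma adjusted p = 0.114 and 0.172). With slide row as a block, 4 granulosa and 5 luteal genes fell. Fshr, Cyp19a1, Amh, Ptgfr and Lhcgr were not well above background on any neoplasia array. The mean level spanned 2.61 to 3.19 in wildtype and -4.42 to -1.71 in neoplasia for the granulosa list, and 4.38 to 5.85 and -0.89 to 0.22 for the luteal list. All 7 erythrocyte genes rose, among them Hbb-bt, Hbb-bs, Alas2 and Hba-a1 by 5.44 to 6.13. The mean level of that list was -2.47 to -1.54 in wildtype and 1.85 to 4.02 in neoplasia. Of 9 epithelial genes, Krt8 and Krt18 rose and Epcam, Cdh1 and Cldn7 fell, with overlapping groups for Cdh1 (limma adjusted p = 0.0475). These falls numbered 0 without wildtype 1, 1 without wildtype 2 and 0 in the fit blocked on slide row, which gave 0 rises as well. Of 5 trophoblast and decidua genes, Prl8a2, a decidual prolactin, was at least 686-fold higher and Gcm1 fell by 0.90. Prl3d1, Prl3b1 and Ascl2 differed by 0.56, 0.55 and 0.50 and did not pass. The fall of Gcm1 was lost without wildtype 1, 2 or 3, without neoplasia 1, 3 or 4, and in the fit blocked on slide row. Of the genes of that list left untested, Prl4a1, Tpbpa and Psg17 were not well above background on any array, and Hand1 and Psg19 were so on 1 array each. The part of these cell contents in the levels of Vegfa, Pgf and Angpt1 was not tested.

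Over the 8 arrays, after the mean of each group was removed, the levels most like those of Kdr were those of Lpar4, a lysophosphatidic acid receptor, Dll4, a Notch ligand of tip and arterial cells, and Gucy1a1, a guanylate cyclase subunit. Pearson's r was 0.98, 0.98 and 0.97 among 12644 genes above background on all arrays. All 24 endothelial genes had r above 0 with Kdr, with a median of 0.82, against a median of -0.13 over all these genes. The levels most like those of Vegfa were those of Impdh1, a guanine nucleotide synthesis enzyme, 1600012H06Rik and Mycn, a MYC family transcription factor, with r of 0.99, 0.98 and 0.97. Of the 18 hypoxia genes, 16 had r above 0 with Vegfa, with a median of 0.49, against 0.02 over all genes. The median r with Vegfa was higher for 4 other lists, at 0.67 for 13 sprouting, 0.58 for 13 pericyte and smooth muscle, 0.57 for 4 erythrocyte and 0.52 for 24 endothelial genes. These values describe 8 arrays that share a slide, rest largely on the spread among 5 neoplasias, and the 3 genes named for each were picked as the highest of 12644.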

How the data were processed

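RNA of 3 wildtype and 5 neoplasia samples was labelled with Cy3, per the labels' protocols. The scanner files deposited by the authors hold spot intensity on a linear scale from Agilent Feature Extraction 11.0.1.1, background-subtracted and spatially detrended but not scaled between arrays, on a grid annotated on mm9, per the file headers. All arrays lay on 1 slide scanned in 1 session. The authors' deposited value table is log2: all 37932 entries equal, within 0.001, the log2 of the processed intensity averaged over spots sharing a feature name, so no scaling or centring was applied.

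From these files, spots with outlier flags and controls were left out, log2 processed intensity was taken relative to the 75th percentile, and spots of a probe were averaged. A probe counted as well above background where all its unflagged spots were; probes so on at least 3 arrays were tested, with the brightest probe standing for a gene. Other probes of the members were tested in a fit of all tested probes. No probe was saturated. Symbols came from accessions through RefSeq annotation of assembly GRCm38.p6 (47.7% of probes); other features kept the files' names. The group difference was fitted without covariates by lmFit and eBayes of limma 3.58.1 under R 4.3.3 (two-sided, Benjamini-Hochberg over all tested features); 95% intervals are unadjusted. A fold against a group not above background is a bound, written "at least", from the higher of the probe's value and the dimmest signal above background on each array. The test was tested on simulated data. Each list's genes were named by taking up to 4 called members by size of difference; the genes most like Kdr and Vegfa were the 3 with the highest r. Genes named beyond that rule were chosen after their values were seen. They include Nrp1, Tie1, Vegfd, Angpt4, Clec14a, Sox17, Plvap, Aplnr, Acta2, Car9, Foxl2, Nr5a2, Cyp19a1, Amh and Cldn7. The members and lists were chosen with earlier results of these data known. The number of arrays limits the precision, and alternatives are given in the closing section. Normexp was run on median foreground and background intensity.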

Additional observations from a re-analysis of the deposited data

Results flagged for a closer look

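Vegfb on neoplasia 3, at 0.79 on the log2 scale, lay apart from the other neoplasia arrays: its gap to the nearest of them was 0.737 of the group's range, above Dixon's 95% critical value for 5 samples. The 12 member probes were examined in this way, and about 1 in 20 groups is marked by chance. Without neoplasia 3 the difference of Vegfb was 0.14 (limma adjusted p = 0.593).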

How the results depend on the processing

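Over 21 alternatives, 173 of 209 recomputed member differences kept their direction and their side of the threshold; 17 lost a call, 10 gained one and 9 turned, and the causes were not tested. Members that rose numbered 1 instead of 2 with quantile normalization, spike-in scaling, no filter on dim probes, the deposited values, the replicate block and slide row as a block, 5 in slide row 2 alone, 0 at an adjusted p of 0.01, and 0 to 3 without 1 array. Members that fell numbered 3 with spike-in scaling (Angpt1, Vegfc and Tek), 0 with slide row as a block, and 1 without any 1 array. The replicate numbers did not pair the samples (same-number correlations of -0.09, -0.03 and -0.05); with the replicate block 2047 features rose. Vegfb differed by 0.0489 and Vegfc by 0.0289 with slide row as a block and in slide row 2 alone. Vegfb ranged from -0.10 to 0.14 without 1 array and was 0.0070 without wildtype 1. Flt4 turned to -0.27 with spike-in scaling and to -0.15 in the deposited values, and Angpt2 to -0.14 with the replicate block. Of all features, 738 rose with spike-in scaling, 1526 in the deposited values, 8289 with array weights, 739 with slide row as a block, 2649 in slide row 2 alone and 1190 at 0.01, against 4294. Falls numbered 1899 among probes above background on all arrays, 6125 in the deposited values, 5621 with array weights, 797 with slide row as a block and 1375 at 0.01, against 3375. Without 1 array, rises spanned 1309 to 5714 and falls 1530 to 4283. Of the list counts, 97 moved and 407 did not move by more than 1.5 times. Tek was not well above background on neoplasia 1, so its value there is limited by the signal.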
